A study of Mus musculus with 18 samples.

Results

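The genes described here are 9 prostate tumour antigen candidates, Psca, Steap1, Steap2, Steap3, Steap4, Folh1, Cd276, Epcam and Msln, measured in TRAMP tumours and normal mouse prostate. The list of 9 was drawn up with earlier results of these data known, and no measured value entered the choice of probe sets. It takes in every Affymetrix probe set whose only gene symbol is one of these 9, which gave 18 of the 34945 probe sets that name 1 gene, or 9 of 18193 genes. The labels describe 9 TRAMP tumours and 9 normal prostates, with 1 array for each sample, and give the dorsolateral and ventral lobes as the source of the normal tissue. TRAMP (Transgenic Adenocarcinoma of the Mouse Prostate) mice carry viral oncoproteins under a promoter of the prostate secretory gene probasin, so the transgene is driven mainly in prostate epithelium. Strain, age and tumour stage were not given in the sources used here. Whether each sample is a separate animal is not stated, so a p-value here reflects only the spread among these arrays, which may be technical, and their number limits the precision.

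The 9 genes encode membrane proteins, most of which are studied as surface targets on tumour cells. Psca (prostate stem cell antigen) and Msln (mesothelin) are held on the outer membrane by a lipid anchor. The STEAP proteins span the membrane several times, and Steap2, Steap3 and Steap4 reduce iron and copper so that the metals can be carried into cells. Folh1 encodes prostate-specific membrane antigen, a folate and glutamate carboxypeptidase that is a leading imaging target in human prostate cancer. Cd276 (B7-H3) is a B7 family protein that acts on T cells, and Epcam is an adhesion protein of epithelial cells. In bulk tissue, fewer cells of a type and less RNA per cell cannot be told apart.

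Of these genes, Cd276 was higher in the tumours and Steap1 was lower, while Steap4 was lower by 1 of its 2 probe sets. No probe set of Psca, Steap2, Steap3, Folh1, Epcam or Msln passed the test. Levels are log2(signal + 16), where the signal is the deposited intensity, and differences are tumour minus normal on that scale. The added 16 makes differences of dim genes smaller than they are. A probe set was called where limma with Benjamini-Hochberg adjustment over all 34945 probe sets gave an adjusted p under 0.05. In all, 4 of 18 member probe sets were called, 1 higher and 3 lower, where 13.5% of all probe sets were called, 7.04% higher and 6.42% lower. The median difference was -0.19 over the 18 member probe sets and 0.02 over all 34945. Among the leading probe sets, the brightest of each gene over all arrays, 2 of 9 were called, where 15.2% of genes were called in that way. Probe sets of 1 gene share its transcripts, so the 18 are not independent. For no member did the 9 tumours lie wholly apart from the 9 normal prostates, where 1.48% of all probe sets did so. A value is described as dim below the 40th percentile of its array, which lay between 6.91 and 7.41, and 10 of the 18 probe sets exceeded that limit on at least 9 arrays. Where dim values are common, the difference is also given with dim values raised to that limit, as the floored difference.

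**Figure D1:**
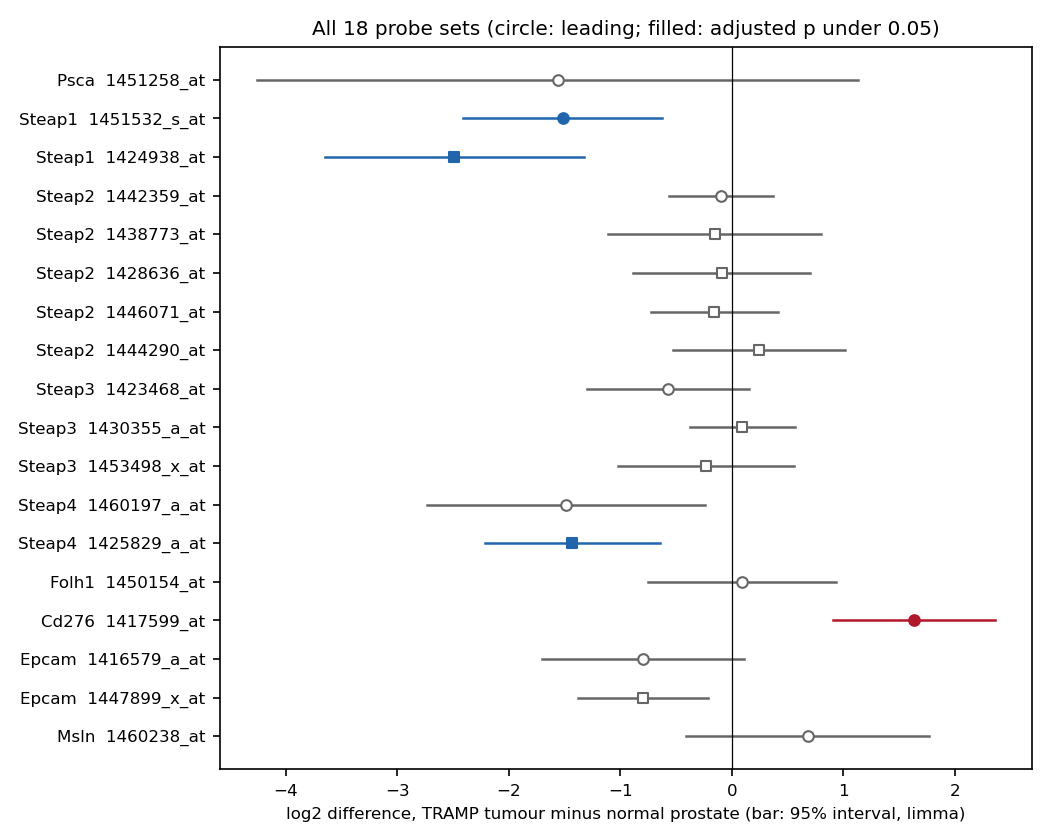
Log2 difference, TRAMP tumour minus normal prostate, for all 18 probe sets of the 9 genes, with bars for the 95% interval from limma (n = 9 each). Circles are the brightest probe set of a gene and squares the others. Filled symbols, with an adjusted p under 0.05, are Cd276 on the right at 1.63 and both Steap1 probe sets and 1 of Steap4 on the left, between -1.43 and -2.49.

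Several arrays differed in ways that touch these genes. Pbsn, the gene of probasin, had a median of 4.49 in tumours, dim on all 9, and a median of 10.8 in normal prostates. Normal prostate 9 was the exception in its group, with Pbsn dim at 4.18 and Hoxb13, a luminal homeobox gene, at 4.50, while the other 8 normal prostates had Hoxb13 at 10.85 or more. The mean level of 6 seminal vesicle genes was 15.1, 15.6 and 15.0 on tumours 3, 5 and 7, 10.8 on tumours 6 and 8, and 12.1 on normal prostate 9. Urothelium genes averaged 12.8 on tumour 4 and 12.9 and 11.1 on normal prostates 3 and 5. Neuroendocrine genes averaged 10.8, 9.45 and 11.1 on tumours 1, 4 and 9, and no other array exceeded 6.57. Poly-A control transcripts, which are added to RNA before labelling, were bright on 5 tumour and 6 normal arrays and dim on 4 tumour and 3 normal arrays, and values within each set are given where they bear on a result. The actin 3' to 5' ratio, a sign of RNA quality, was 1.12 ± 0.51 (log2, SD, n = 9) in tumours and 1.71 ± 0.69 in normal prostates (exact permutation p = 0.0585).

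Promoters of the 3 genes with a called probe set are shown for their base composition, 250 bases before to 50 after the annotated start, from RefSeq on GRCm38.p6, 5′ to 3′ along the gene's strand. The RefSeq table held promoters of 7 of the 9 genes. Capitals mark the GC box GGGCGG and the TATA box TATAAA, each searched on both strands.
Cd276, chr9:58554984-58555283, minus strand: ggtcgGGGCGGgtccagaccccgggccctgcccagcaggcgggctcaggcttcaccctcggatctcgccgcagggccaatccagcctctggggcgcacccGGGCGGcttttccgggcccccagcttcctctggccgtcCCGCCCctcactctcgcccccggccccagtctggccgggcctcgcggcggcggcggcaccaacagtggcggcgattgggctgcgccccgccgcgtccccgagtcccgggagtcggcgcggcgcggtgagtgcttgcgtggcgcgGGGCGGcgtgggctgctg
Steap1, chr5:5749268-5749567, minus strand: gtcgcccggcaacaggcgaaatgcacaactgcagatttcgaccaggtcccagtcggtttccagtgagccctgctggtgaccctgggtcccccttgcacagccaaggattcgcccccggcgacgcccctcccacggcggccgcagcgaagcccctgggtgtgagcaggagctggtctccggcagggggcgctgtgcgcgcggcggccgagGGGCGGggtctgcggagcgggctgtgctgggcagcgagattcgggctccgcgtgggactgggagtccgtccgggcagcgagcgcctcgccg
Steap4, chr5:7960222-7960521, plus strand: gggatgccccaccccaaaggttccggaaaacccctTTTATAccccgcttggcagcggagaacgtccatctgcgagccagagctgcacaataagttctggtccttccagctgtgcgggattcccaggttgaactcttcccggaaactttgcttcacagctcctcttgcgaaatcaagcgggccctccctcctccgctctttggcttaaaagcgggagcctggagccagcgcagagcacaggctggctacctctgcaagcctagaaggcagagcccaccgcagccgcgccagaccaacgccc
The Cd276 promoter had 39 CpG dinucleotides and 4 GC boxes, and that of Steap1 33 CpG and 1 GC box. The Steap4 promoter had 16 CpG, no GC box and 1 match to the TATA box letters. That match was on the opposite strand, as TTTATA, at -215 from the annotated start. The median over 32841 promoters of this length was 7 CpG, and 35.7% of them held a GC box and 13.6% a TATA box. The hexamer AGAACA, a core of steroid receptor binding sequences, searched on both strands and present in 19.0% of those promoters, was in none of these 3 windows. These matches describe letters in the window and say nothing of which factors act there.

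Cd276, whose protein is a checkpoint ligand found on many tumours, was higher in TRAMP tumours. Its level ran from 6.84 to 8.56 in tumours, with a median of 7.94, against 4.48 to 7.74 in normal prostates, with a median of 6.73. The means were 7.92 ± 0.48 in tumours and 6.29 ± 0.99 in normal prostates (SD, n = 9 each). This gave a difference of 1.63 ± 0.35 (SE), or 3.10-fold (limma adjusted p = 0.00455; exact permutation p = 0.000206, two-sided). All 9 tumours lay above the normal median, and 7 of 9 above every normal prostate. The exceptions were tumour 3 at 6.84 and tumour 7 at 7.69, which lay below normal prostate 3, at 7.74 the highest of its group. The gene was dim on 1 of 9 tumours and 8 of 9 normal prostates, so the size of the change rests on values near or below the dim limit, and the floored difference was 0.76. Its percentile within the array was 33.8 to 67.3 in tumours and 3.08 to 53.3 in normal prostates. The difference was 1.72 among arrays with bright poly-A controls (limma adjusted p = 0.0758) and 1.42 among those with dim controls (limma adjusted p = 0.264). Of 7 fibroblast genes 3 were called higher, with list means of 10.0 to 11.8 in tumours against 8.62 to 11.2 in normal prostates. Of 7 macrophage genes 2 were called higher, with means of 8.80 to 11.5 in tumours against 7.85 to 9.73 in normal prostates. Of 5 dividing cell genes 4 were measured and all 4 called higher. Their means were 9.04 to 12.8 in tumours against 5.90 to 8.51 in normal prostates. Over all genes, 7.34% were called higher. Tumours 2 and 9, highest for Cd276 at 8.56 and 8.18, had fibroblast means of 10.7 and 10.0. Their macrophage means were 10.1 and 8.80, and their dividing cell means 12.6 and 12.8. Tumour 5, next for Cd276 at 8.17, had 11.6, 11.5 and 9.35 for these 3 lists. Tumour 3, lowest for Cd276, had 11.7, 9.74 and 9.70. The part of fibroblasts, macrophages and dividing cells in the Cd276 result was not tested.

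Among the other 13 measured genes of the B7 family and its receptors, 1 was called higher and 0 lower, where 15.2% of genes were called. That gene was Btla, an inhibitory receptor of lymphocytes, at 8.03 ± 0.33 in tumours and 7.36 ± 0.52 in normal prostates (difference 0.67 ± 0.21 SE, limma adjusted p = 0.0393). The count became 0 when any 1 of tumours 3, 5, 6 and 8 or normal prostates 1, 2, 4, 5 and 7 was left out. Cd274, which encodes the checkpoint ligand PD-L1, averaged 7.69 ± 0.83 in tumours and 7.42 ± 0.77 in normal prostates (limma adjusted p = 0.672). Vtcn1, which encodes the related protein B7-H4, averaged 6.34 ± 1.75 in tumours and 6.40 ± 1.17 in normal prostates (limma adjusted p = 0.969). Whether Cd276 differed from its relatives in its change was not tested.

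**Figure D2:**
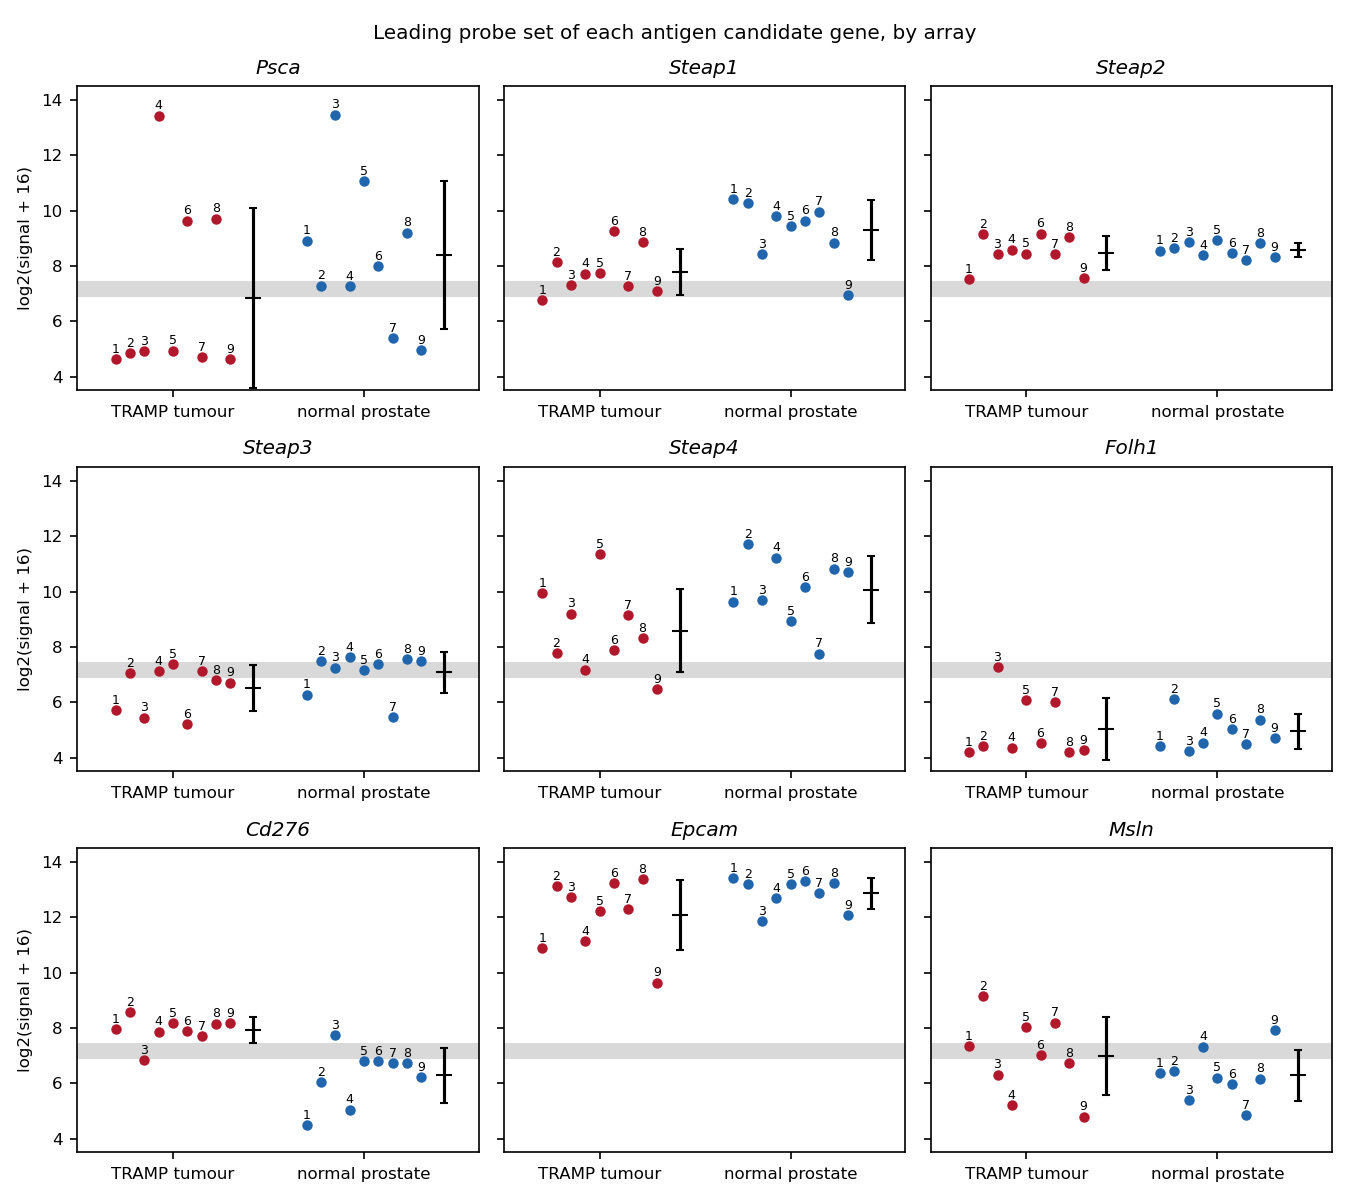
Level of the brightest probe set of each of the 9 genes, as log2(signal + 16), on 9 TRAMP tumour arrays (left, red) and 9 normal prostate arrays (right, blue). Numbers are the sample numbers, bars the mean ± SD, and the grey band the range of the dim limit. Cd276 lies above every normal prostate in 7 of 9 tumours and above all but normal prostate 3 in the others, Steap1 lies below the normal median in all 9, and Psca spreads over the whole scale in both groups.

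The STEAP genes did not move as 1 group. Steap1, which unlike its relatives lacks the domain that binds the electron donor, was lower in tumours. By its brighter probe set it ran from 6.76 to 9.26 in tumours, with a median of 7.72, against 6.95 to 10.4 in normal prostates, with a median of 9.63. Means were 7.79 ± 0.83 in tumours and 9.30 ± 1.09 in normal prostates, a difference of -1.51 ± 0.43 (SE), or 2.86-fold lower (limma adjusted p = 0.0236; exact permutation p = 0.00658). Every tumour lay below the normal median, but only tumour 1 lay below all normal prostates, because normal prostate 9 stood at 6.95. The other probe set moved with it over the 18 arrays (r = 0.933, a description). It ran from 4.09 to 7.69 in tumours, with a median of 4.92, against 4.94 to 8.87 in normal prostates, with a median of 8.37. Its difference was -2.49 ± 0.56 (SE, limma adjusted p = 0.00602), and since it was dim on 8 of 9 tumours the floored difference was -0.96.

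Prostate epithelium genes as a list were also lower in tumours. Their mean level was 9.36 ± 1.01 in tumours and 12.9 ± 1.68 in normal prostates. Of 9 listed genes 7 were measured and 3 called lower, where 7.86% of genes were called lower. The 3 were Azgp1, Pbsn and Spink1, with differences of -5.75, -5.81 and -5.49. The keratin genes Krt8 and Krt18 were not called (limma adjusted p = 0.406 and 0.316). Outside tumours 1 and 9 they ran from 13.6 to 14.0 and 13.7 to 14.6 in tumours. In normal prostates they ran from 13.1 to 14.3 and 13.2 to 14.9. Normal prostate 9, lowest of its group for Steap1, was also lowest for these genes at 8.54, where the next normal prostate had 12.8. Tumours 6 and 8 had the highest Steap1 of their group, 9.26 and 8.85, and the highest prostate epithelium means, 10.6 and 10.1. Tumour 2 came next for Steap1 at 8.13, but its prostate epithelium mean of 8.88 lay above only those of tumours 1 and 9. The part of epithelial content in the Steap1 difference was not tested. Without normal prostate 9 the brighter probe set differed by -1.81 (limma adjusted p = 0.00208). The difference was -2.13 among arrays with bright poly-A controls (limma adjusted p = 0.00677), and -0.47 among those with dim controls (limma adjusted p = 0.880), which include normal prostate 9. With the actin ratio as a covariate it was -1.06 and was not called (limma adjusted p = 0.163), and the exact Wilcoxon test did not call it either (adjusted p = 0.0663). The dimmer probe set was -2.06 with the actin ratio, just short of a call (limma adjusted p = 0.0501), and was called by the exact Wilcoxon test (adjusted p = 0.0174).

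Steap4, a metalloreductase known from adipose tissue and inflammation, was called lower by 1 of its 2 probe sets, and 8 of 9 tumours lay below the normal median by both. The brighter ran from 6.46 to 11.3 in tumours, with a median of 8.32, against 7.76 to 11.7 in normal prostates, with a median of 10.2. Its difference was -1.49 ± 0.60 (SE), with an interval of -2.73 to -0.24, and did not pass (limma adjusted p = 0.106). Tumour 5 stood apart from its group at 11.35, above 8 of the 9 normal prostates, and without it the difference was -1.83 (limma adjusted p = 0.0282). The dimmer probe set averaged 5.74 ± 0.81 in tumours and 7.17 ± 0.87 in normal prostates, a difference of -1.43 ± 0.38 (SE, limma adjusted p = 0.0161). It was dim on 8 tumours and 4 normal prostates, and its floored difference was -0.22. Its call was lost within the arrays with bright poly-A controls (difference -1.23, limma adjusted p = 0.196) and with the actin ratio as a covariate (-0.98, limma adjusted p = 0.125).

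Adipocyte genes were also lower in tumours. All 5 measured of 7 listed were called lower in tumours, where 7.86% of all genes were called lower. Their mean was 6.22 to 9.70 in tumours, against 6.49 to 13.3 in normal prostates. Among normal prostates the highest Steap4, 11.7 and 11.2 on numbers 2 and 4, came with the highest adipocyte means, 13.3 and 13.1. Normal prostate 7 had the lowest of both, 7.76 and 6.49. Among tumours the 2 did not run together throughout. Tumour 1 had the highest adipocyte mean of its group, 9.70, with Steap4 at 9.95. Tumour 4 had an adipocyte mean of 8.51 with Steap4 at 7.17. Tumours 3 and 7 had adipocyte means of 6.22 and 6.74 with Steap4 at 9.20 and 9.15. Tumour 5, the highest tumour for Steap4, had an adipocyte mean of 6.72 and the highest macrophage mean of any array, 11.5. The part of adipocytes and macrophages in these differences was not tested.

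Steap2, a metalloreductase that cycles between the cell surface and internal membranes, was near the same mean level in both groups but varied more among tumours. Its brightest probe set ran from 7.52 to 9.17 in tumours, with a median of 8.45, against 8.21 to 8.94 in normal prostates, with a median of 8.55. The difference was -0.10 ± 0.22 (SE), with an interval of -0.56 to 0.37 (limma adjusted p = 0.825). Its SD was 0.61 in tumours and 0.26 in normal prostates, and over the 5 probe sets the tumour SD was 1.15 to 5.28 times the normal SD. Tumours 2, 6 and 8 lay above every normal prostate at 9.15, 9.17 and 9.03, and tumours 1 and 9 lay below every normal prostate at 7.52 and 7.55. The same 3 tumours were the highest and tumour 9 the lowest by the next 2 probe sets in brightness. None of the 5 probe sets was called, with differences of -0.16 to 0.25. The remaining 2 were dim on most arrays, with floored differences of 0.14 and 0.16.

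Steap3, the reductase of the transferrin cycle in red cell precursors, was at or near the dim limit. Its brightest probe set ran from 5.20 to 7.38 in tumours, with a median of 6.80, against 5.46 to 7.62 in normal prostates, with a median of 7.36. The difference was -0.57 ± 0.35 (SE), with an interval of -1.30 to 0.16 (limma adjusted p = 0.300). It was dim on 7 tumours and 2 normal prostates, and the floored difference was -0.15. Its other 2 probe sets were dim on all 18 arrays. The erythroid list, 4 of 6 genes measured, had 0 genes called by limma and 1 at an unadjusted p under 0.05.

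Iron and copper genes around the STEAP reductases gave 0 higher and 4 lower of 22 measured, where 7.34% and 7.86% of genes were called in each direction. Ncoa4, the receptor that delivers ferritin for breakdown, averaged 11.3 ± 0.80 in tumours and 12.5 ± 0.59 in normal prostates (difference -1.25 ± 0.32 SE, limma adjusted p = 0.0127). The copper importer Slc31a1 was lower by -1.16, Aco1, which encodes iron regulatory protein, by -0.75, and Hfe, a partner of the transferrin receptor, by -0.69. The transferrin receptor Tfrc itself was not called, at 10.7 ± 0.94 in tumours and 10.2 ± 0.42 in normal prostates (limma adjusted p = 0.301). The list's median difference was -0.19, beside -0.00356 over all genes. With 1 array left out, the 4 became 1 without normal prostate 2, 2 without normal prostate 4 or tumour 1, 6 or 9, and the 0 higher became 1 without tumour 7.

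Psca spread more widely than any other member in both groups, and both groups reached nearly the same highest level. It ran from 4.63 to 13.4 in tumours, with a median of 4.93, against 4.96 to 13.5 in normal prostates, with a median of 7.99. The difference was -1.56 ± 1.29 (SE), with an interval of -4.26 to 1.14 (limma adjusted p = 0.459), and the floored difference was -0.43. Tumours 1, 2, 3, 5, 7 and 9 were dim at 4.63 to 4.94, below every normal prostate, while tumours 4, 6 and 8 stood at 13.4, 9.64 and 9.71. Among normal prostates, numbers 3 and 5 were highest at 13.5 and 11.1 and numbers 7 and 9 were dim.

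Psca is known from the urothelium of the bladder as well as from prostate, and the arrays highest in it were those highest in urothelium genes. Tumour 4 and normal prostate 3 had urothelium means of 12.8 and 12.9 over 7 measured of 7 listed genes. Tumours 6 and 8 had 9.75 each and normal prostate 5 had 11.1. Tumours 3, 5 and 7, with urothelium means of 8.42, 9.32 and 8.97, had Psca at 4.93, 4.94 and 4.71. Normal prostates other than 3 and 5 had urothelium means of 8.34 to 8.86, with Psca from 4.96 on number 9 to 9.20 on number 8. Without normal prostates 3 and 5 and tumour 4 the difference was -1.28 (limma adjusted p = 0.416). Within the arrays with bright poly-A controls it was -2.77, and within those with dim controls 0.66, neither called (limma adjusted p = 0.335 and 0.919). The part of bladder tissue in the Psca values was not tested.

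**Figure D3:**
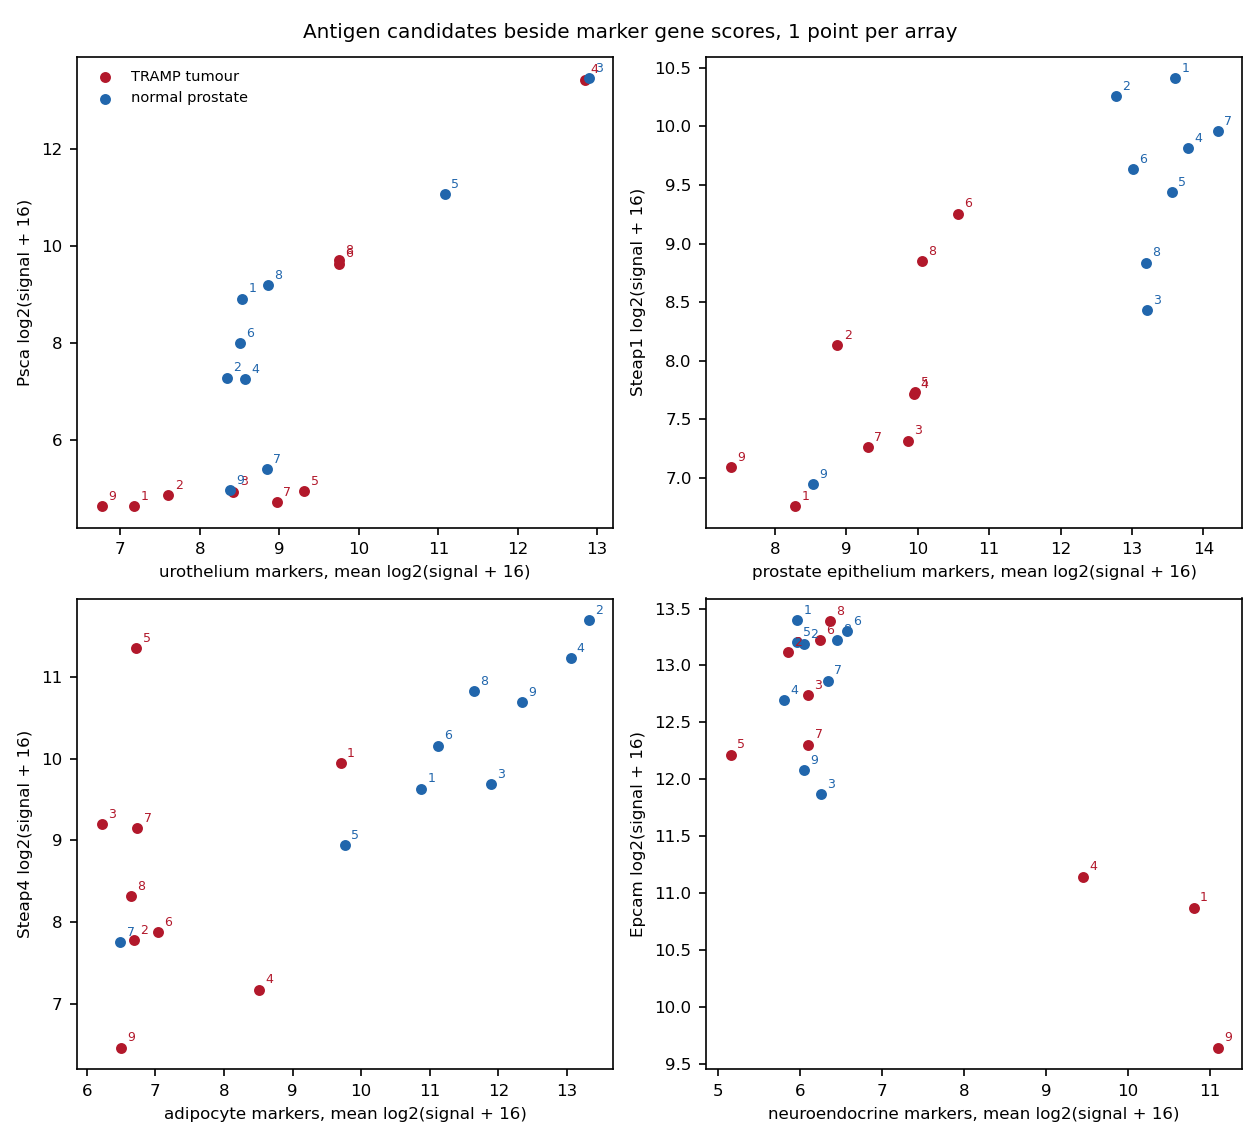
Levels of Psca, Steap1, Steap4 and Epcam (vertical axes, log2(signal + 16)) against the mean level of a marker list (horizontal axes, same scale), with 1 numbered point for each of 9 TRAMP tumours (red) and 9 normal prostates (blue). Psca is highest on tumour 4 and normal prostate 3, at urothelium means of 12.8 and 12.9, and Epcam is lowest on tumours 1, 4 and 9, the 3 arrays high in neuroendocrine genes.

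Of the Ly6 and uPAR genes, the family of lipid-anchored proteins to which Psca belongs, 1 of 18 measured was called higher and 0 lower. Over all genes, 15.2% were called. Ly6h, a family member best known from brain, averaged 8.55 ± 1.53 in tumours and 5.58 ± 0.72 in normal prostates, where it was dim on all 9. By group means it was at least 2.69-fold higher in tumours, counted against the dim limit of the normal arrays (limma adjusted p = 0.0012). Tumours 1 and 9 were highest at 10.9 and 11.3. The other tumours ran from 6.95, dim on tumour 5, to 8.65. The list's median difference was 0.12, and its count of lower genes became 1 without tumour 2 or normal prostate 9.

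Msln, the lipid-anchored antigen of mesothelial cells, was dim on 5 tumours and 7 normal prostates. It ran from 4.79 to 9.14 in tumours, with a median of 7.01, against 4.85 to 7.91 in normal prostates, with a median of 6.20. The difference was 0.68 ± 0.52 (SE), with an interval of -0.41 to 1.77 (limma adjusted p = 0.421), and the floored difference was 0.40. Tumours 2, 7 and 5 were highest, at 9.14, 8.19 and 8.03, and lay above every normal prostate. Normal prostate 9 had the highest Msln of its group, 7.91, and the highest mesothelium mean, 9.31. The mesothelium means of tumours 2, 7 and 5 were 6.98, 8.20 and 8.45, in a tumour range of 6.14 to 8.45. The part of mesothelial cells in the Msln values was not tested. Of 3 measured mesothelin partner genes limma called 0, and 0 had an unadjusted p under 0.05.

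Folh1, the gene of the prostate-specific membrane antigen, was dim on 17 of 18 arrays. It ran from 4.21 to 7.28 in tumours, with a median of 4.42, against 4.24 to 6.11 in normal prostates, with a median of 4.70. The difference was 0.09 ± 0.40 (SE), with an interval of -0.75 to 0.94 (limma adjusted p = 0.910), and the floored difference was 0.07. Both medians lay well below the dim limit, where an array signal does not show whether the gene is expressed at a low level or not at all. The highest tumours were 3, 5 and 7 at 7.28, 6.08 and 5.99, the same 3 that were highest in seminal vesicle genes, and all but tumour 3 were dim. Normal prostate 9, with a seminal vesicle mean of 12.1, had Folh1 at 4.70. Tumours 6 and 8, with 10.8 each, had 4.54 and 4.21. The highest normal prostate, number 2 at 6.11, had a seminal vesicle mean of 6.32. Without tumours 3, 5 and 7 and normal prostate 9 the difference was -0.64 (limma adjusted p = 0.114).

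Folate and glutamate carboxypeptidase genes gave 1 higher and 2 lower of 14 measured, where 15.2% of all genes were called. There were 2 higher when tumour 5, tumour 8 or normal prostate 9 was left out. Mthfd2, a mitochondrial enzyme of folate metabolism, averaged 10.9 ± 0.85 in tumours and 8.79 ± 0.73 in normal prostates (difference 2.07 ± 0.35 SE, limma adjusted p = 0.000935). Slc46a1, the proton-coupled folate transporter, averaged 6.97 ± 1.04 in tumours and 9.17 ± 0.68 in normal prostates (difference -2.21 ± 0.39 SE, limma adjusted p = 0.00121), with a floored difference of -1.76. Fpgs, which traps folate in the cell by adding glutamates, was lower by -0.81. Naalad2, which encodes a close relative of the Folh1 protein, averaged 8.28 ± 0.76 in tumours and 8.16 ± 0.52 in normal prostates (limma adjusted p = 0.825).

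Epcam was among the bright genes of every array. Its brighter probe set ran from 9.64 to 13.4 in tumours, with a median of 12.3, against 11.9 to 13.4 in normal prostates, with a median of 13.2. Its percentile within the array was 81.1 to 99.1 in tumours and 96.1 to 98.9 in normal prostates. The difference was -0.80 ± 0.43 (SE), with an interval of -1.70 to 0.11 (limma adjusted p = 0.237), and the other probe set gave -0.80 ± 0.28 (SE, limma adjusted p = 0.063). Both probe sets moved together over the 18 arrays (r = 0.921, a description). Tumours 9, 1 and 4 were lowest at 9.64, 10.9 and 11.1, below every normal prostate, and the other 6 tumours overlapped the normal range by this probe set. By the dimmer one, tumours 3, 5 and 7 also lay below every normal prostate, so that 6 of 9 did. The dimmer probe set was called lower when tumour 2, 6 or 8 or normal prostate 9 was left out, at -0.86 to -0.92 (limma adjusted p = 0.0307 to 0.0479), and under 5 other settings.

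The 3 tumours lowest in Epcam were those with the highest means of 6 measured neuroendocrine genes. Chga, a gene of secretory granules, stood at 11.5, 10.0 and 12.2 on tumours 1, 4 and 9, while the highest of the other arrays had 7.48. Krt8, a luminal keratin, was low on tumours 9 and 1 at 7.72 and 9.36, but not on tumour 4 at 13.95. Without tumour 9 the Epcam difference was -0.49. The part of neuroendocrine cells in the Epcam values was not tested.

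Of 17 measured partners and proteases of Epcam, 1 was called higher and 0 lower, where 15.2% of all genes were called. That gene was Bace1, a membrane protease, at 10.2 ± 0.29 in tumours and 9.64 ± 0.29 in normal prostates (difference 0.51 ± 0.15 SE, limma adjusted p = 0.0331). The count became 0 when tumour 1 or 7 or normal prostate 1, 2, 4 or 6 was left out, 2 without tumour 5 and 3 without normal prostate 9. Cldn7, a tight junction partner of Epcam, averaged 10.9 ± 2.37 in tumours and 11.9 ± 0.47 in normal prostates (limma adjusted p = 0.427). The adhesion gene Cdh1 averaged 12.3 ± 2.70 in tumours and 13.8 ± 0.44 in normal prostates (limma adjusted p = 0.253). Tumours 1 and 9 had Cldn7 at 8.17 and 5.63 and Cdh1 at 8.95 and 6.45. The other tumours had Cldn7 at 11.3 to 12.4, beside 11.5 to 12.6 in normal prostates. Their Cdh1 was 13.4 to 14.1, beside 12.7 to 14.2 in normal prostates.

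Other genes studied as surface antigens gave 2 higher and 2 lower of 26 measured, or 15.4% called, where 15.2% of all genes were called. The count of higher genes became 1 when tumour 2 or 7 or any 1 of normal prostates 1, 2, 4, 5, 6, 7 and 8 was left out, and that of lower genes became 1 without normal prostate 1 or 4 and 4 without tumour 4. Ncam1 and the receptor gene Ror1 were higher, by 2.84 and 1.36, and the floored difference of Ror1 was 1.10. Acpp, the gene of prostatic acid phosphatase, averaged 6.69 ± 1.57 in tumours and 9.03 ± 0.67 in normal prostates (difference -2.34 ± 0.53 SE, limma adjusted p = 0.00657), with a floored difference of -1.44. Trpm8, a cold-sensing channel, was called lower but was dim on all 18 arrays, so no fold is given. Dll3, a target in neuroendocrine cancers, averaged 7.86 ± 0.99 in tumours and 7.58 ± 0.23 in normal prostates (limma adjusted p = 0.620). It stood at 9.18 and 9.68 on tumours 1 and 9, which were high in neuroendocrine genes, and no other array exceeded 7.88. Tumour 4, also high in neuroendocrine genes, had 7.85.

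**Figure D4:**
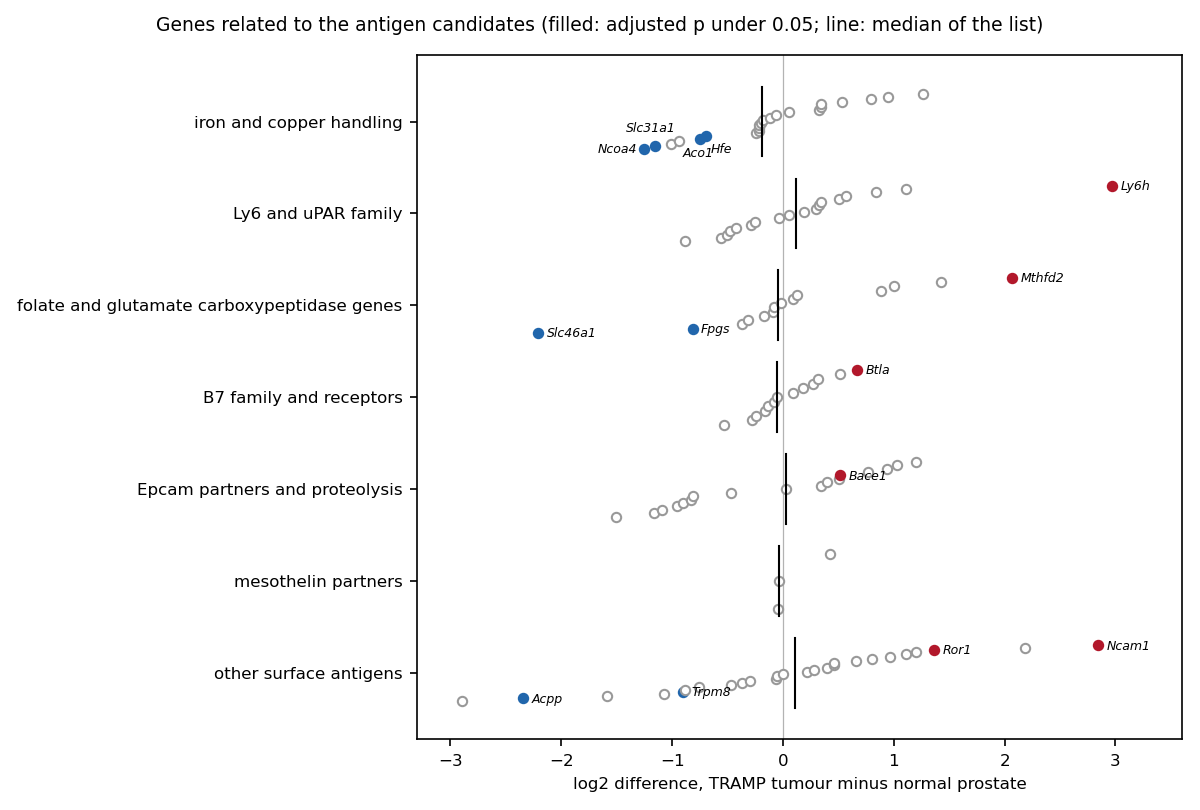
Log2 difference, TRAMP tumour minus normal prostate, of every measured gene of 7 lists related to the 9 candidates, with 1 point per gene and a black line at the median of each list. Filled points passed at an adjusted p under 0.05. Most genes of each list were not called, and list medians lay between -0.19 and 0.12.

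Genes whose level ran most like that of a member were sought among 12773 genes above the dim limit on at least 9 arrays. Likeness was Pearson's r over 18 arrays, given as a description, since the arrays share tissue content and the group difference. Psca was followed most closely by Plce1, a phospholipase (r = 0.936), the serine protease gene Prss22 (0.899) and Ermp1 (0.895). Steap1 was followed by the thiamine transporter Slc19a2 (0.949), Acrbp (0.946) and Pigr, which carries antibodies into secretions (0.936). After the group means were subtracted, r was still 0.891 to 0.914 for these 3. Steap2 was followed by the transcription factor gene Ets2 (0.899), the cell polarity gene Pard6b (0.890) and Plek2 (0.887).

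Steap4 was followed by the glutamate transporter Slc1a3 (0.897), the fatty acid receptor Cd36 (0.887) and Lpl, a lipase of adipose tissue (0.875). Epcam was followed by Lsr, a component of epithelial cell junctions (0.959), the apical syntaxin Stx3 (0.915) and Lnx2 (0.907). Likeness was weaker for Steap3, with Gas7 at 0.749, Cdh10 at 0.730 and Polr1b at 0.685. For Cd276, Homer3 had 0.878, Nlrp6 0.858 and Bclaf3 0.834, which were 0.712, 0.814 and 0.568 after the group means were subtracted.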

How the data were processed

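Total RNA of 9 TRAMP tumours and 9 normal prostates was extracted with Trizol and labelled with biotin, 1 array each, per the labels' protocols. The authors deposited one linear intensity per probe set and array. MAS5 is the tool named, without a version, per the submitters' processing notes. The 2% trimmed mean of the deposited intensities was 500 on every array. MAS5 leaves dim probe sets noisy, and no detection calls were used here.

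The platform table names 1 gene for 34945 of 45101 probe sets, several for 932 and none for 9160, and 64 are controls. No symbol changed through the mouse gene table of GRCm38.p6. Among 228 listed genes, 24 were not analysed here for want of such a probe set. The test was two-sided, on log2(signal + 16), without a filter on low values, using lmFit and eBayes of limma 3.58.1 (R 4.3.3) with group as the only term. On simulated data with 34945 probe sets 38% of 100 probe sets given a log2 change of 1 were recovered, as were 83% of 100 given a change of 2, and 4 calls among 125 were false. The simulated noise was independent between probe sets and had the same spread in both groups. Real arrays share tissue content and can differ in spread, so these rates may not hold for them. Exact permutation tests used all 48620 splits. List scores are means over leading probe sets, and Python 3.11.15 with matplotlib 3.10.9 drew the figures. The members and the lists were chosen with earlier results of these data known. Every member probe set is accounted for. Up to 4 called genes per related list were named by absolute t, and uncalled relatives (Cd274, Vtcn1, Tfrc, Naalad2, Cldn7, Cdh1 and Dll3) were chosen after their values were seen. The arrays left out in alternatives are those that earlier results gave as high in other tissues. The alternatives are given in the closing section.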

Additional observations from a re-analysis of the deposited data

Results flagged for a closer look

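Of 36 groups of 9 values, 5 held a sample whose gap to its nearest neighbour passed Dixon's critical share of the group's range, where chance gives about 1 in 20 groups. Tumour 3 was lowest for Cd276 at 6.84, with the next tumour at 7.69. Tumour 5 was highest for the dimmer Steap4 probe set at 7.77, with the next tumour at 6.03. For Steap2, tumour 9 was lowest at 5.38 by the third probe set in brightness, with the next tumour at 7.40. Normal prostate 8 was highest at 9.17 by the second Steap2 probe set, with the next at 8.32, and normal prostate 3 was lowest at 4.39 by the dimmest, with the next at 6.32.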

How the results depend on the processing

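The number of probe sets called, 4704, was 2651 among arrays with bright poly-A controls, 1 among those with dim controls (4 tumours against 3 normal prostates, 3474 at an unadjusted p under 0.05), 2112 with the actin ratio as a covariate and 8341 without normal prostate 9 and tumours 3, 5, 6, 7 and 8. It was 3682 to 5639 with each array left out in turn. Calls that were higher made up 52.3%, against 45.2% after quantile normalization, 40.004% after centring on the 75th percentile and 36.7% after centring on housekeeping genes. The 1 member probe set called higher became 0 within either set of poly-A control arrays, where fewer arrays were tested. The 3 called lower became 0 among arrays with dim controls, 0 with the actin ratio (Steap1 -1.06 and -2.06, the dimmer Steap4 probe set -0.98, with adjusted p of 0.163, 0.0501 and 0.125), 1 when probe sets with an _a, _s or _x suffix were left out, since those include 2 of the 3, and 5 without normal prostate 9 and tumours 3, 5, 6, 7 and 8, where Epcam was called lower (-1.78, adjusted p = 0.0207). Leaving out each array in turn gave 1 higher each time and 3 or 4 lower. Pseudocounts of 1 and 64, the filter, quantile normalization, both centrings, array weights, the intensity trend and the poly-A class as a block left Cd276 and the brighter Steap1 probe set called.

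Values that were not called changed sign in 3 genes by their leading probe sets. Psca was 0.66 and Steap2 0.10 among arrays with dim controls. Steap2 ranged from -0.18 to 0.025 with each array left out. Folh1 was -0.16 with a pseudocount of 1, -0.10 among arrays with dim controls, -0.64 without normal prostate 9 and tumours 3, 5 and 7, and -0.66 when tumours 6 and 8 were left out too, and ranged from -0.19 to 0.24 with each array left out. The cause was not tested. With the replicate number as a block, 3965 probe sets were called, and the call of the dimmer Steap4 probe set was lost (adjusted p = 0.069), while the block changed no other member call. Correlations between same-numbered arrays were -0.0594 to 0.234, and 1 of 9 tumours was closest to the normal prostate of its own number, so numbers were not taken as pairs. Of 518 counts over the related lists under these alternatives, 411 stayed within 1.5 times the count given.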
